A study of Homo sapiens with 12 samples.

Results

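The MYC, MAX, MXD and MLX network is a set of transcription factors that bind DNA in pairs, and its newly made RNA was followed here through 10 of its genes. These were MYC, its partner MAX, the antagonists MNT, MGA, MXI1, MXD1, MXD3 and MXD4, and the parallel pair of MLX and MLXIP (MondoA). They were chosen by name and by what they encode, with earlier results of these libraries known, and make up 10 of the 23434 genes in the table of counts. All 10 passed the filter on low counts in each of the 5 fits described here, so no member was left out.

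The libraries are EU-seq, in which cells take up 5-ethynyl-uridine (EU) for a short time and the RNA made in that time is tagged, captured and sequenced. U2OS-MycER cells, derived from an osteosarcoma, express Myc joined to the part of the estrogen receptor that binds 4-hydroxytamoxifen (OHT), and OHT activates this chimera. The 12 libraries fall into 4 groups of 3: shNT (a non-targeting shRNA), shNT_OHT (the same shRNA with 300 nM OHT for 40 h), shCDK12 (an shRNA against CDK12, a kinase that acts on elongating RNA polymerase) and shCDK12_OHT (that shRNA with the same OHT treatment). All cells in all groups carried MycER, received 1 µg/mL doxycycline to turn on the shRNA, were arrested with 100 ng/mL nocodazole for 8 h, shaken off, released for 12 h and given 0.5 mM EU in the last 2 h, and 40 µg of their RNA was mixed with 10 µg of mouse RNA. Whether replicates were separate cultures, what drives the MycER transgene and whether the line is clonal are not given in the labels, so the p-values measure only the spread between these libraries.

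As background, MYC binds DNA only when paired with MAX, and the pair activates genes for growth and metabolism at E-boxes, the short sequence CACGTG. MNT, MGA and the MXD proteins compete for the same MAX and the same sites, and most of them repress by bringing in SIN3 and histone deacetylases, while MGA belongs to a Polycomb-type complex. MLX is a partner for MLXIP, which answers to sugar phosphates and drives genes such as TXNIP, and MLX can also pair with MNT, MXD1 and MXD4, which ties both arms together.

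Because the network's proteins bind CACGTG, the promoters of its own genes were searched for these letters, and the 3 that hold them are shown with 12 bases to either side and the E-box in capitals. The sequences come from RefSeq on GRCh38.p14, run 5′ to 3′ on the strand of the gene, and cover chr17:2401236-2401265 (minus strand) for MNT, chr4:2262330-2262359 (minus strand) for MXD4 and chr17:42567038-42567067 (plus strand) for MLX.
MNT: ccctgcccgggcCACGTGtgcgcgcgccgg
MXD4: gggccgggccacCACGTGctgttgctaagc
MLX: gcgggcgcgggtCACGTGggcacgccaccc
The E-box began 193 bases before the annotated start in MNT, 238 before it in MXD4 and 50 before it in MLX. CACGTG reads the same on both strands, so 1 search covers both. MYC had no entry among the promoter windows and was not searched. The 9 members with an entry had 14 windows, each from 250 bases before to 50 after a start, and 3 of the 9 had the letters in at least 1 window. Among the 22921 windows of all counted genes 8.30% held them, and of 16493 genes 10.8% had at least 1 such window. A match of letters is a description of the window and not a bound site, and the windows of MAX, MGA, MXI1, MXD1, MXD3 and MLXIP are only without these letters.

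Counts per library summed to between 1251695 and 10447836, an 8.35-fold range, with shNT and shNT_OHT the shallowest groups and 2 libraries well below the rest (shNT replicate 3 at 1928373 and shNT_OHT replicate 2 at 1251695). Within its group shNT_OHT replicate 1 stood furthest from the others, with a chi-square per degree of freedom of 8.63 and 9.34 against 3.81 between the other two libraries. CDK12, the targeted gene, went against 1 label: it was at 323, 289 and 300.2 CPM in shNT (counts relative to the library total, adjusted between libraries by TMM) and at 293, 277 and 298 CPM in the libraries labelled shCDK12, a log2 fold change of -0.08 (adjusted p = 0.447). With OHT, CDK12 was at 434, 356 and 400.5 CPM in shNT_OHT and at 215, 208 and 218 CPM in the libraries labelled shCDK12_OHT. It was thus lower under the shCDK12 label there, at -0.88 (SE 0.11, adjusted p = 0.00011). Upon OHT in shNT, CDK12 rose by 0.38 (SE 0.12, adjusted p = 0.0352). If the labels shCDK12 and shCDK12_OHT were exchanged, CDK12 would lie below the matching shNT group without overlap, both without and with OHT. Of 20 target genes of MYC and MAX, 15 rose and 0 fell upon OHT in shNT. Upon OHT in shCDK12 0 rose and 17 fell, and the exchange would turn these falls into rises. Those genes were listed with earlier results of these libraries known. Whether the 2 labels were exchanged was not tested and could not be settled from these files. Every direction given here holds for the labels as deposited. With these labels exchanged, each OHT response given for shCDK12 would have the opposite sign, and the comparisons between the shRNAs would set other pairs of groups against each other. Of 9 mesenchymal markers 7 exceeded a mean of 10 CPM, while COL1A2 and TWIST1 were near 0. Their summed level was 1565 to 1656 CPM in shNT, 1063 to 1155 in shNT_OHT, 490.2 to 496 in shCDK12 and 639 to 649 in shCDK12_OHT, so it moved with the groups along with the network's genes, and its part in their changes was not tested. Of the 4 epithelial markers KRT18 and KRT8 exceeded 10 CPM, and 0 of the 4 leukocyte and 0 of the 3 endothelial markers did. In bulk RNA a change in the make-up of the cell population and a change in RNA made per cell cannot be told apart.

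MYC had by far the most newly made RNA of the network. Per kilobase of exon, the scale on which genes can be compared, it stood at 562 ± 30.1 CPM per kb in shNT (SD, n = 3), followed by MAX at 57.3 ± 2.22 and MLX at 43.5 ± 2.71. MGA (20.1 ± 0.86) came next, then MXD3 (17.7 ± 1.03), MXI1 (15.6 ± 2.18) and MNT (13 ± 3.63), and last MXD1 (8.80 ± 1.55), MXD4 (5.99 ± 0.59) and MLXIP (5.83 ± 0.14 CPM per kb). The libraries overlapped between the neighbours MXD3 and MXI1, MXI1 and MNT, MNT and MXD1, and MXD4 and MLXIP, and did not overlap between the other neighbours in that order. MYC and then MAX were highest in all 4 groups without overlap. MLX followed them in both shNT groups at 43.5 ± 2.71 and 41.8 ± 4.84 CPM per kb, and came after all but MLXIP and MXD4 in shCDK12 at 14.4 ± 1.41. There MXI1, an antagonist, came next after MAX at 56.8 ± 4.46 CPM per kb, as it did in shCDK12_OHT at 43.4 ± 1.88. The lowest place belonged to MXD4 in shNT_OHT (2.73 ± 0.41) and shCDK12 (4.13 ± 0.75) and to MLXIP in shCDK12_OHT (6.40 ± 0.73 CPM per kb). Because EU-seq also captures introns and exon length is a stand-in for what was counted, this order is approximate.

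The related genes outside the set had few counts. MYCN had at most 15 counts in a library and MLXIPL at most 45. MYCL had 9 to 171 counts, and its log2 fold change was 1.04 (SE 0.26, adjusted p = 0.00114) from shNT to shCDK12 and 1.05 (SE 0.28, adjusted p = 0.0113) from shNT_OHT to shCDK12_OHT. ESR1, the gene of the estrogen receptor, had 0 to 21 counts. Counts on MYC itself do not separate the cell's own gene from the transgene.

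**Figure D1:**
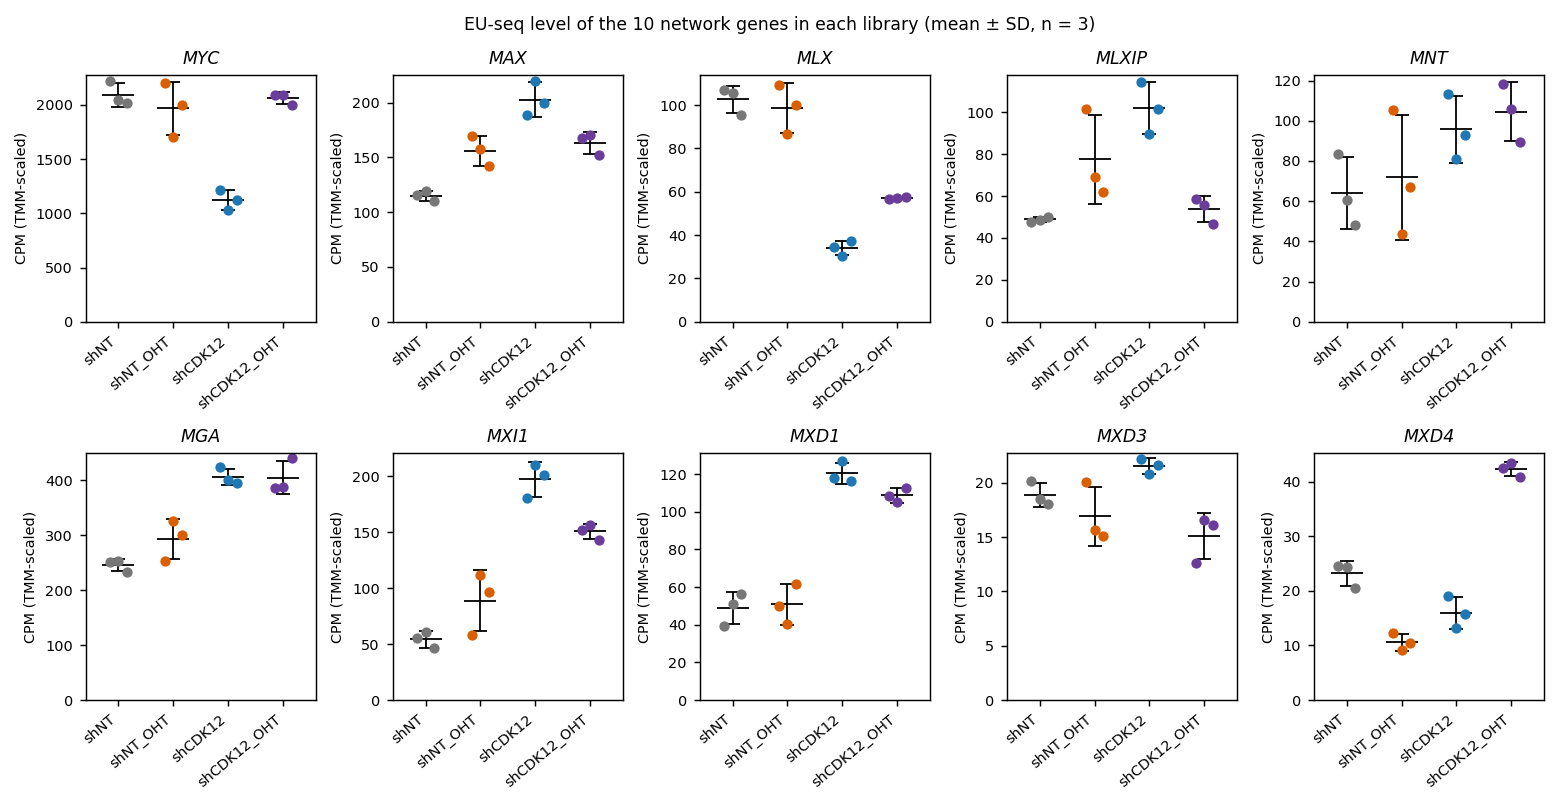
Level of each network gene in every library in CPM scaled by TMM (vertical axes from 0, one panel a gene), by group, with the mean and SD of 3 libraries as bars. MYC is lowest in the 3 libraries labelled shCDK12 (1035 to 1214 CPM), while MXI1 and MXD1 are highest there, and MXD4 is highest in shCDK12_OHT (40.8 to 43.4 CPM).

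Calls in the network were counted with edgeR's quasi-likelihood test at an adjusted p under 0.05, and each count is read against the share of all genes called in the same fit. From shNT to shNT_OHT 4 of the 10 members changed, 3 higher (MAX, MXI1, MLXIP) and 1 lower (MXD4), where 17.3% of all genes were called (9.05% higher and 8.29% lower). From shCDK12 to shCDK12_OHT 7 changed, 3 higher (MYC, MXD4, MLX) and 4 lower (MAX, MXI1, MXD3, MLXIP), where 48.9% of all genes were called (27.5% higher and 21.5% lower). From shNT to shCDK12 9 changed, all but MXD3, with 6 higher and 3 lower (MYC, MXD4, MLX), where 62% of all genes were called (29.6% higher and 32.4% lower). From shNT_OHT to shCDK12_OHT 6 changed, 4 higher (MGA, MXI1, MXD1, MXD4) and 2 lower (MLX, MLXIP), where 45.4% of all genes were called (23.8% higher and 21.6% lower). With such shares of all genes moving, the counts describe the network and do not set it apart.

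The size of the changes gave a like picture. The median absolute log2 fold change of the members against that of all genes was 0.22 against 0.30 upon OHT in shNT, 0.45 against 0.33 upon OHT in shCDK12, 0.86 against 0.50 between shCDK12 and shNT, and 0.51 against 0.46 between the same shRNAs with OHT. The groups' libraries did not overlap for 4, 8, 9 and 6 members in these comparisons in turn, where that held for 35.9%, 56.3%, 64.5% and 55.2% of all genes. MXI1, MXD4 and MLXIP were called in all 4 comparisons and no member in none, which makes 26 calls of 40.

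Each of the 4 calls upon OHT in shNT was lost in some fits with fewer libraries or counts, mostly at a like size of change. None of them passed the threshold without shNT replicate 1, without shNT replicate 2, or without both of the shallowest libraries, and MXD4 alone did without shNT replicate 3. Without shNT replicate 1 the log2 fold changes were 0.44 for MAX, 0.69 for MXI1, -1.07 for MXD4 and 0.65 for MLXIP, and without the shallowest libraries they were 0.45, 0.46, -1.06 and 0.81. MLXIP was not called without shNT_OHT replicate 1, and MXI1 not without shNT_OHT replicate 2 or 3. MAX and MXD4 kept their calls when any single shNT_OHT library was left out. In a random draw that cut the counts of all libraries to 1251695, 0 of the 8 members that could still be tested were called upon OHT in shNT (MXD3 and MXD4 fell below the filter) and 2 of 9 (MYC and MXD4) upon OHT in shCDK12.

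**Figure D2:**
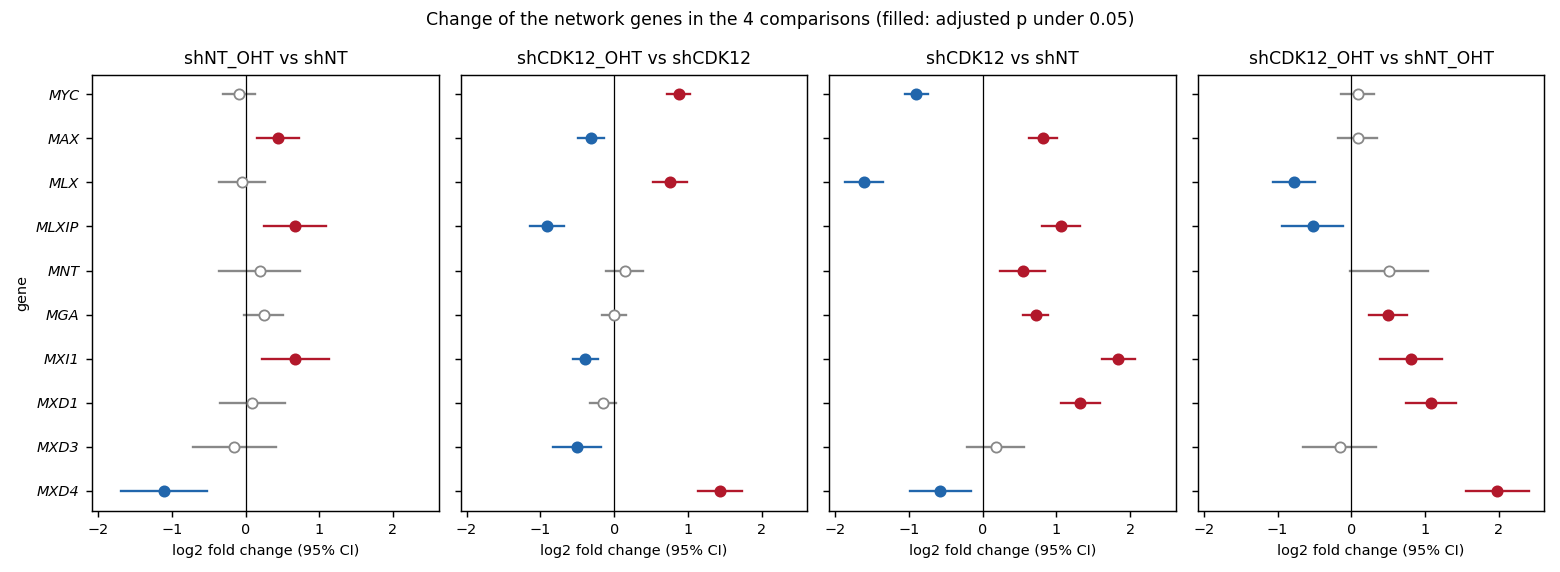
Log2 fold change of each network gene (horizontal axis) in the 4 comparisons, with 95% confidence intervals from edgeR. Filled points passed an adjusted p of 0.05, red for higher and blue for lower, and open grey points did not. MXD4 lies below 0 in the first panel (-1.11) and above 0 in the second (1.44), and MYC is past the threshold only upon OHT in shCDK12 and from shNT to shCDK12.

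MYC, the activator of the network, was not called upon OHT in shNT cells and was lowest in the libraries labelled shCDK12. It was at 2221, 2044 and 2013 CPM in shNT, at 2199, 1706 and 1997 in shNT_OHT, at 1214, 1035 and 1122 in shCDK12 and at 2091, 2095 and 2000.4 CPM in shCDK12_OHT. The 3 libraries labelled shCDK12 lay below all 9 others, which overlapped between groups. MYC fell by 0.90 on the log2 scale (SE 0.08, adjusted p = 1.8e-10) from shNT to shCDK12 and rose by 0.88 (SE 0.07, adjusted p = 4.98e-08) from shCDK12 to shCDK12_OHT. Upon OHT in shNT its log2 fold change was -0.09 (95% interval -0.31 to 0.13), and between shCDK12_OHT and shNT_OHT it was 0.09 (-0.14 to 0.31). The call on the difference between the OHT responses, 0.96 (SE 0.13, adjusted p = 7.93e-06), held in all 21 alternatives run on it.

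MAX, the partner that both MYC and its antagonists need, moved the other way. It was at 116, 119 and 110.3 CPM in shNT, at 169, 158 and 142 in shNT_OHT, at 189, 220.3 and 199.9 in shCDK12 and at 167, 171 and 152 CPM in shCDK12_OHT. The shNT libraries were lowest and those labelled shCDK12 highest, and both OHT groups lay between them and overlapped each other. MAX rose by 0.82 (SE 0.09, adjusted p = 5.02e-08) from shNT to shCDK12 and by 0.43 (SE 0.13, adjusted p = 0.0358) upon OHT in shNT, and fell by 0.31 (SE 0.08, adjusted p = 0.00464) upon OHT in shCDK12. Between the groups with OHT its log2 fold change was 0.09 (95% interval -0.17 to 0.34). MAX shares 58.5% of its annotated span with FNTB on the opposite strand, so its counts are uncertain where reads were not assigned by strand, which the sources used here do not state.

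Among the antagonists MXI1, which pairs with MAX and recruits SIN3, rose most in the libraries labelled shCDK12. It was at 55.5, 61.1 and 46.1 CPM in shNT, at 58.6, 111 and 96.9 in shNT_OHT, at 180.2, 211 and 201 in shCDK12 and at 152, 156 and 143 CPM in shCDK12_OHT. The shNT and shNT_OHT libraries overlapped through shNT_OHT replicate 1, and both groups labelled shCDK12 lay above both shNT groups. The log2 fold change was 1.84 (SE 0.11, adjusted p = 2.41e-13) without OHT and 0.81 (SE 0.19, adjusted p = 0.00605) with it. Upon OHT MXI1 rose by 0.68 (SE 0.21, adjusted p = 0.041) in shNT and fell by 0.39 (SE 0.08, adjusted p = 0.000783) in shCDK12.

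MXD1, a repressor that accompanies differentiation, followed the shRNA label and was not called upon OHT. It was at 39.4, 50.9 and 56.1 CPM in shNT, at 50.1, 40.4 and 61.8 in shNT_OHT, at 118, 127 and 116 in shCDK12 and at 108, 105 and 113 CPM in shCDK12_OHT. Both groups labelled shCDK12 lay above both shNT groups, which overlapped, and shCDK12 lay above shCDK12_OHT without overlap. MXD1 rose by 1.33 (SE 0.13, adjusted p = 2.03e-09) without OHT and by 1.08 (SE 0.15, adjusted p = 0.000282) with it, and its log2 fold change upon OHT was 0.09 in shNT (95% interval -0.35 to 0.53) and -0.15 in shCDK12 (-0.33 to 0.02). With upper-quartile scaling the last value became a call (-0.22, adjusted p = 0.0412). MXD1 shares 36.7% of its span with ASPRV1 on the opposite strand.

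MXD4, the member with the fewest counts in shNT_OHT, had opposite responses to OHT under the 2 shRNA labels. It was at 24.6, 24.4 and 20.5 CPM in shNT, at 12.2, 9.07 and 10.44 in shNT_OHT, at 19.0, 13.2 and 15.7 in shCDK12 and at 42.5, 43.4 and 40.8 CPM in shCDK12_OHT. The 4 groups did not overlap, with shNT_OHT lowest and shCDK12_OHT highest. Upon OHT MXD4 fell by 1.11 (SE 0.27, adjusted p = 0.0128) in shNT and rose by 1.44 (SE 0.14, adjusted p = 3.38e-07) in shCDK12, and the difference between these responses was 2.53 (SE 0.27, adjusted p = 4.58e-07). Between the shRNA labels it was higher with OHT (1.98, SE 0.19, adjusted p = 3.19e-05) and lower without (-0.58, SE 0.20, adjusted p = 0.0161), where the call was lost without shNT replicate 1, shNT replicate 2 or shCDK12 replicate 2 (log2 fold changes of -0.54, -0.54 and -0.44, adjusted p up to 0.0896). Its counts ran from 11 to 39 in shNT_OHT, which limits how firmly its level there is known.

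MXD3, a relative that is made in dividing cells, changed in 1 comparison. It lay between 18.04 and 20.1 CPM in shNT, 15.1 and 20.1 in shNT_OHT, 20.8 and 22.2 in shCDK12 and 12.6 and 16.5 CPM in shCDK12_OHT. Upon OHT it fell by 0.50 (SE 0.15, adjusted p = 0.0109) in shCDK12, where its groups did not overlap, and the adjusted p was 0.071 without shCDK12_OHT replicate 1. Its other log2 fold changes were -0.15 (95% interval -0.72 to 0.41) upon OHT in shNT, 0.18 (-0.21 to 0.56) between shCDK12 and shNT, and -0.16 (-0.65 to 0.34) between these with OHT. The libraries of shCDK12 and shNT did not overlap either, without a call. MXD3 shares 20% of its span with PRELID1 on the opposite strand.

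MNT, the antagonist that most cells keep at all times, had the widest relative spread between replicates of all members in both shNT groups. It was at 83.4, 60.7 and 48.1 CPM in shNT, at 105, 43.7 and 67.0 in shNT_OHT, at 113, 80.8 and 92.7 in shCDK12 and at 118, 106 and 89.4 CPM in shCDK12_OHT. Every pair of groups compared overlapped. MNT rose by 0.54 (SE 0.15, adjusted p = 0.00325) from shNT to shCDK12, and between the same labels with OHT its log2 fold change was 0.51 (95% interval -0.01 to 1.03). That value became a call without shNT_OHT replicate 1 (0.83, adjusted p = 0.000272) and with no filter on low counts (adjusted p = 0.0472). Upon OHT it was 0.19 (-0.36 to 0.74) in shNT and -0.16 without shNT_OHT replicate 1, and 0.15 (-0.11 to 0.40) in shCDK12, where it was called without shCDK12 replicate 1 (0.28, adjusted p = 0.0336).

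MGA, a very large protein that holds a T-box beside the domain that pairs with MAX, was higher under the shCDK12 label. It was at 251, 252 and 234 CPM in shNT, at 253, 325 and 300.1 in shNT_OHT, at 423, 399 and 395 in shCDK12 and at 387, 388 and 439.5 CPM in shCDK12_OHT. Both groups labelled shCDK12 lay above both shNT groups and overlapped each other, and shNT lay narrowly below shNT_OHT. MGA rose by 0.72 (SE 0.08, adjusted p = 3.61e-08) without OHT and by 0.49 (SE 0.12, adjusted p = 0.00596) with it, and the second call was lost once a trend of the counts with gene length was removed (0.15, adjusted p = 0.248). Upon OHT its log2 fold change was 0.24 (95% interval -0.02 to 0.50) in shNT and 0.00 (-0.16 to 0.15) in shCDK12. The first of these was called without shNT_OHT replicate 1 (0.35, adjusted p = 0.015) and with the length trend removed (0.47, adjusted p = 0.0128).

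MLX and MLXIP, the nutrient-responsive arm, moved in opposite directions in the comparison without OHT. MLX was at 107, 105 and 95.2 CPM in shNT, at 109, 86.6 and 100.0 in shNT_OHT, at 34.3, 30.5 and 37.2 in shCDK12 and at 56.6, 57.3 and 57.5 CPM in shCDK12_OHT. The shNT groups overlapped and lay above both others, and shCDK12 was lowest without overlap. MLX fell by 1.61 (SE 0.13, adjusted p = 5.69e-11) from shNT to shCDK12 and by 0.78 (SE 0.13, adjusted p = 0.000749) between the groups with OHT. Upon OHT it rose by 0.76 (SE 0.11, adjusted p = 2.1e-05) in shCDK12, and its log2 fold change in shNT was -0.05 (95% interval -0.36 to 0.26). MLX shares 14.6% of its span with PSMC3IP on the opposite strand.

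MLXIP was at 47.8, 48.8 and 50.1 CPM in shNT, at 102, 69.3 and 61.8 in shNT_OHT, at 115, 89.5 and 102 in shCDK12 and at 58.5, 55.7 and 46.8 CPM in shCDK12_OHT. The libraries labelled shCDK12 were highest, overlapped with shNT_OHT through its replicate 1 and lay above both other groups, and the libraries of shNT and shCDK12_OHT overlapped at the low end. MLXIP rose by 1.06 (SE 0.12, adjusted p = 7.68e-08) from shNT to shCDK12 and by 0.67 (SE 0.20, adjusted p = 0.03) upon OHT in shNT, and it fell by 0.91 (SE 0.11, adjusted p = 3.15e-06) upon OHT in shCDK12. Without shNT_OHT replicate 1, the highest library of its group, the rise upon OHT in shNT was 0.42 (adjusted p = 0.0697). From shNT_OHT to shCDK12_OHT MLXIP fell by 0.52 (SE 0.19, adjusted p = 0.0424), a call that was lost without shNT_OHT replicate 1 (-0.25, adjusted p = 0.125) and without any single shCDK12_OHT library (adjusted p up to 0.165).

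The response to OHT was then compared between the shRNA labels in a fit of all 12 libraries. It differed for 6 of the 10 members, where 45.2% of all genes were called (25.6% higher under the shCDK12 label and 19.6% lower). MYC, MXD4 and MLX had a higher response under the shCDK12 label, and MAX (-0.75), MXI1 (-1.04) and MLXIP (-1.60) a lower one. For MNT, MGA, MXD1 and MXD3 the difference was -0.06 (95% interval -0.71 to 0.58), -0.25 (-0.54 to 0.05), -0.26 (-0.69 to 0.16) and -0.36 (-0.94 to 0.22). MGA became a call with upper-quartile scaling (-0.37, adjusted p = 0.035), with the length trend removed (-0.63, adjusted p = 0.000405) and without shNT_OHT replicate 1 (-0.34, adjusted p = 0.0247). The fitted OHT responses of 8 of the 10 members had opposite signs under the 2 labels, as did those of 71.1% of the 10233 genes tested in both fits. With the labels shCDK12 and shCDK12_OHT exchanged these shares would be 2 of 10 and 28.9%.

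The balance of MYC against its antagonists was followed as a ratio of counts within each library, which no scaling between libraries can move. The counts on MYC were 4.37 to 4.77 times the summed counts on MNT, MGA, MXI1, MXD1, MXD3 and MXD4 in shNT, 3.13 to 4.403 times in shNT_OHT, 1.21 to 1.39 times in shCDK12 and 2.38 to 2.57 times in shCDK12_OHT. The mean log2 ratio was 2.20 ± 0.07 (SD, n = 3), 1.88 ± 0.25, 0.39 ± 0.10 and 1.32 ± 0.06 in these groups. The shNT groups overlapped, shCDK12_OHT lay below both, and shCDK12 lay below all others. As this ratio sums over the members, no test was run on it. Its counts were not divided by exon length (12193 bases for MGA and 3721 for MYC), so its size depends on length. Its MYC counts do not separate the cell's own gene from the transgene. With any 1 library of the group left out the mean log2 ratio lay between 0.35 and 0.44 in shCDK12 and between 2.18 and 2.24 in shNT.

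Other ratios were chosen after their values had been seen. MLXIP had 0.446 to 0.526 counts for each count on MLX in shNT, 0.617 to 0.928 in shNT_OHT, 2.74 to 3.34 in shCDK12 and 0.814 to 1.03 in shCDK12_OHT. MXD4 had 0.399 to 0.446 counts for each count on MXI1 in shNT, 0.0815 to 0.209 in shNT_OHT, 0.0628 to 0.105 in shCDK12 and 0.278 to 0.284 in shCDK12_OHT. MYC had 17.2 to 19.2 counts for each count on MAX in shNT, 10.8 to 14.1 in shNT_OHT, 4.70 to 6.44 in shCDK12 and 12.3 to 13.1 in shCDK12_OHT. For MYC to MAX and MXD4 to MXI1 alike, shNT had the highest and shCDK12 the lowest mean ratio, and for MLXIP to MLX this order was turned round.

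**Figure D3:**
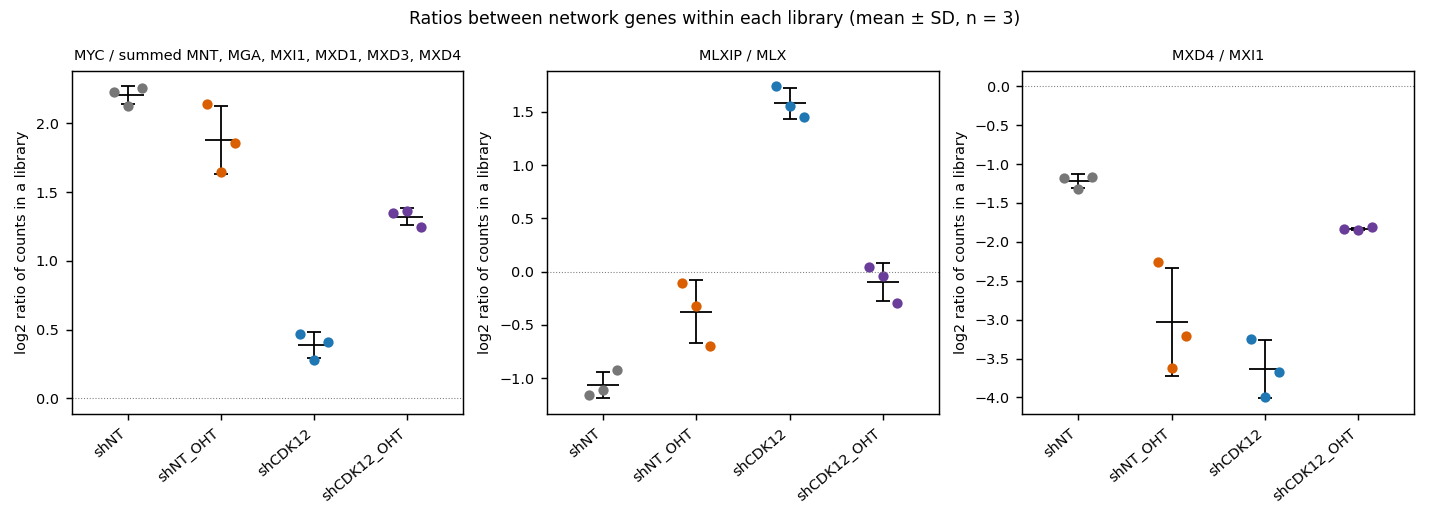
Log2 ratio of counts within each library (vertical axes) for MYC over its 6 antagonists, MLXIP over MLX and MXD4 over MXI1, by group, with the mean and SD of 3 libraries. The 3 libraries labelled shCDK12 are lowest for MYC over antagonists (mean 0.39) and highest for MLXIP over MLX (mean 1.58).

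The make-up of the antagonists shifted as well. MGA held the largest share of their counts, at 54.0 ± 1.16% in shNT, 54.9 ± 4.48% in shNT_OHT, 47.4 ± 0.79% in shCDK12 and 49.0 ± 2.79% in shCDK12_OHT (SD, n = 3). Shares of counts are not per length, and MGA has the longest exons of the 6, at 12193 bases. MXI1 took 11.9 ± 1.08% in shNT, 16.6 ± 4.43% in shNT_OHT, 23.0 ± 2.19% in shCDK12 and 18.3 ± 1.10% in shCDK12_OHT. MXD4 took 5.09 ± 0.20% in shNT and 5.12 ± 0.24% in shCDK12_OHT, and 2.00 ± 0.40% and 1.86 ± 0.31% in shNT_OHT and shCDK12. MXD4 thus had a like share in the first and last group and in the other two, while MXI1 had its lowest share in shNT and its highest in shCDK12.

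**Figure D4:**
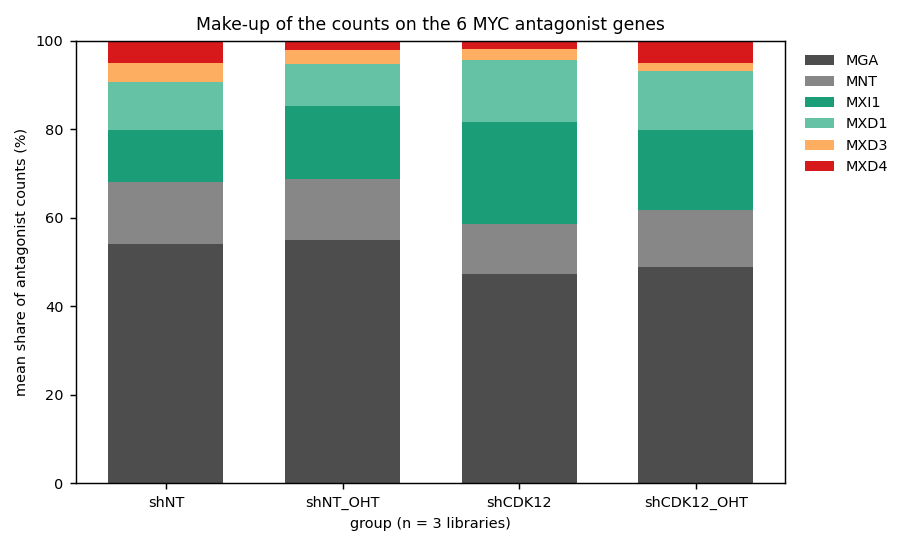
Mean share of each antagonist gene in the summed counts on all 6 (vertical axis, percent, n = 3 libraries a group). MXI1 grows from 11.9% in shNT to 23.0% in shCDK12, and MXD4 shrinks from 5.09% to 1.86%.

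Across the 12 libraries the log2 levels of some members were closely correlated. Of the 45 pairs of members 5 had a Pearson r above 0.8 and 4 an r below -0.8. MNT, MXD3, MXD4 and MLXIP were in none of these pairs. MGA and MXI1 (0.96), MGA and MXD1 (0.87), MAX and MXI1 (0.86) and MXI1 and MXD1 (0.85) were high together, and MYC and MLX formed the remaining positive pair (0.84). The negative pairs were all with MLX, which ran against MXI1 (-0.90), MXD1 (-0.90), MGA (-0.86) and MAX (-0.82). Once each library was set against the mean of its own group, MYC went with MNT (0.95), MXD4 (0.90) and MLX (0.81), MGA went with MXI1 (0.72), and MXI1 ran against MLXIP (-0.74), while MYC and MNT had an r of -0.11 over the 12 libraries as they stand. These values describe 12 libraries in 4 groups that share depth, scaling and treatment, and they carry no test.

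The genes whose log2 CPM followed a member most closely over the 12 libraries were sought among 11698 others. For MYC they were AEN (r = 0.99), ALPK2 (0.98), SH3BP4 (0.97), HPS4 (0.97) and NNMT (0.97). AEN, a nuclease, was at 1156 ± 65.1 CPM in shNT, 1145 ± 158 in shNT_OHT, 642 ± 49.1 in shCDK12 and 1222 ± 49.5 CPM in shCDK12_OHT. The closest gene to MAX was F12 (0.99), to MNT DHX8 (0.93), to MGA TOR1AIP2 (0.98), to MXI1 FEM1C (0.99), to MXD1 ADI1 (0.99), to MXD4 WNT7B (0.98), to MLX S100A16 (0.997) and to MLXIP AOC3 (0.98). With most genes moving between few groups, so high an r is easily met, and nothing about shared control is read from it.

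The genes around the network were taken from lists of what its proteins do. The lists were written with earlier results of these libraries known, so their directions are not independent evidence. Their counts stand beside 17.3% of all genes called upon OHT in shNT, 48.9% upon OHT in shCDK12, 62% from shNT to shCDK12 and 45.4% from shNT_OHT to shCDK12_OHT. Of 12 genes that MLXIP and MLX drive, that make or use sugar phosphates or that encode related factors, 4 rose and 0 fell upon OHT in shNT, 3 rose and 4 fell upon OHT in shCDK12, 6 rose and 4 fell from shNT to shCDK12, and 2 rose and 7 fell from shNT_OHT to shCDK12_OHT, which makes 33.3%, 58.3%, 83.3% and 75% called. Their median log2 fold changes were 0.32, -0.05, 0.24 and -0.47, beside -0.03, 0.05, -0.03 and 0.05 for all genes.

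TXNIP, the best known target of MLXIP, was at 38.9, 44.9 and 30.1 CPM in shNT, at 170.4, 155 and 184 in shNT_OHT, at 224, 234 and 219 in shCDK12 and at 56.4, 71.0 and 63.3 CPM in shCDK12_OHT. The 4 groups did not overlap. TXNIP rose by 2.14 (SE 0.16, adjusted p = 2.71e-06) upon OHT in shNT and by 2.53 (SE 0.11, adjusted p = 1.17e-15) from shNT to shCDK12, and fell by 1.82 (SE 0.09, adjusted p = 8.25e-11) upon OHT in shCDK12. HK2, the first enzyme of glycolysis, had the same order of groups, with log2 fold changes of 1.53, 2.07 and -1.70 in these comparisons (adjusted p = 1.12e-05, 5.59e-15 and 1.32e-11). Both genes, like MLXIP, were highest in shCDK12 and lowest in shNT on the group means. TFE3, another helix-loop-helix factor, which is held in the cytoplasm when nutrients abound, fell by 1.23 (SE 0.10, adjusted p = 5.45e-11) from shNT to shCDK12 and rose by 0.78 (SE 0.09, adjusted p = 1.08e-06) upon OHT in shCDK12, the directions that MLX had.

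Target genes of the MYC and MAX pair changed in 1 direction per comparison. Of 20 tested, 15 rose upon OHT in shNT and 14 from shNT to shCDK12 with 0 lower in both, while 17 fell upon OHT in shCDK12 and 16 from shNT_OHT to shCDK12_OHT with 0 higher in both. The share of all genes called in the same direction was 9.05%, 29.6%, 21.5% and 21.6% in these comparisons in turn. Without shNT replicate 1 the 15 became 9. Their median log2 fold changes were 0.58, 0.55, -0.53 and -0.48. CCND2, a cyclin, was at 545, 509 and 462 CPM in shNT, at 1228, 1295 and 1261 in shNT_OHT, at 1806, 1738 and 1770.2 in shCDK12 and at 890.3, 902 and 903 CPM in shCDK12_OHT, with no overlap between groups. NOP56 (ribosome assembly) and ODC1 (polyamine synthesis) moved with it, by 0.93 and 0.76 upon OHT in shNT, by 1.16 and 1.16 from shNT to shCDK12 and by -1.0 and -0.86 upon OHT in shCDK12. The group labelled shCDK12, with the least MYC RNA and the lowest ratio of MYC to its antagonists, thus had the highest level of CCND2. MYC RNA counts cannot show MycER protein activity.

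**Figure D5:**
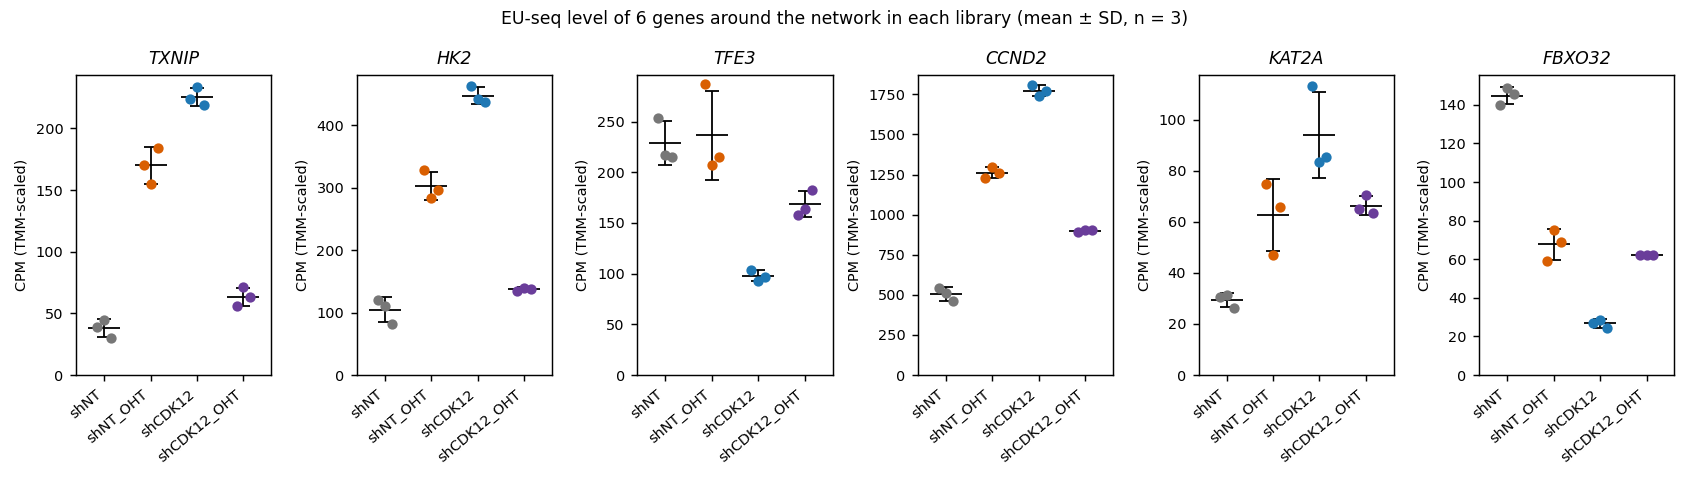
Level in CPM scaled by TMM (vertical axes from 0) in every library for TXNIP and HK2, TFE3, CCND2, KAT2A and FBXO32, by group, with the mean and SD of 3 libraries. TXNIP, HK2 and CCND2 have the order shNT, shCDK12_OHT, shNT_OHT, shCDK12 from low to high, and FBXO32 is highest in shNT and lowest in shCDK12.

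Of 22 cofactors of MYC, 3 rose upon OHT in shNT and 0 fell, 2 rose and 2 fell upon OHT in shCDK12, 4 rose and 5 fell from shNT to shCDK12, and 2 rose and 8 fell from shNT_OHT to shCDK12_OHT, which makes 13.6%, 18.2%, 40.9% and 45.5% called. The 4 calls upon OHT in shCDK12 became 8 without shCDK12 replicate 2 and 2 without shCDK12_OHT replicate 2. The risers upon OHT in shNT were the acetyltransferase KAT2A (1.10, adjusted p = 0.00248) and the helicases RUVBL2 (0.97, adjusted p = 0.00389) and RUVBL1 (0.95, adjusted p = 0.0126). KAT2A also rose by 1.65 (SE 0.15, adjusted p = 5.04e-10) from shNT to shCDK12 and fell by 0.49 (SE 0.11, adjusted p = 0.00163) upon OHT in shCDK12. From shNT_OHT to shCDK12_OHT RUVBL1 fell by 1.88 (adjusted p = 0.000101) and RUVBL2 fell by 1.12 (adjusted p = 0.000305), while the scaffold TRRAP rose by 0.59 (adjusted p = 0.00133).

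The SIN3 and histone deacetylase complex, which the MXD proteins and MNT recruit, had no common direction. Of 19 genes tested upon OHT in shNT 1 rose and 2 fell, and of 20 tested elsewhere 4 rose and 4 fell upon OHT in shCDK12, 6 rose and 5 fell from shNT to shCDK12, and 5 rose and 2 fell from shNT_OHT to shCDK12_OHT, which makes 15.8%, 40%, 55% and 35% called. The 7 calls in the last comparison became 2 without shCDK12_OHT replicate 1 or 2 and 4 without replicate 3. From shNT to shCDK12 the subunits ING1 (1.49, adjusted p = 3.94e-11) and SINHCAF (1.24, adjusted p = 9.57e-11) rose. SINHCAF rose by 0.80 (adjusted p = 0.00509) and ARID4A fell by 1.06 (adjusted p = 0.0038) upon OHT in shNT.

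Of 14 genes of the Polycomb-type complex of MGA, other than MGA and MAX, 0 were called upon OHT in shNT by edgeR and by DESeq2 (1 at an unadjusted p under 0.05 in edgeR), 2 rose and 3 fell upon OHT in shCDK12, 10 rose and 3 fell from shNT to shCDK12, and 4 rose and 2 fell from shNT_OHT to shCDK12_OHT. These are 0%, 35.7%, 92.9% and 42.9% of the 14. PCGF6, which defines the complex, rose by 1.35 (SE 0.18, adjusted p = 4.67e-07) from shNT to shCDK12 and fell by 1.07 (SE 0.14, adjusted p = 8.45e-06) upon OHT in shCDK12. The ubiquitin ligase RING1 fell by 1.302 (SE 0.13, adjusted p = 4.86e-09) from shNT to shCDK12 and by 0.98 (SE 0.14, adjusted p = 0.000298) between these with OHT. At equal depth the 13 calls of shCDK12 against shNT became 4 and the 5 upon OHT in shCDK12 became 2, while DESeq2, upper-quartile and RLE scaling and removal of the length trend each gave 8 upon OHT in shCDK12.

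Of 22 genes that control the stability of MYC protein, 4 rose and 2 fell upon OHT in shNT, 4 rose and 7 fell upon OHT in shCDK12, 9 rose and 6 fell from shNT to shCDK12, and 4 rose and 7 fell from shNT_OHT to shCDK12_OHT, which makes 27.3%, 50%, 68.2% and 50% called. The 6 calls upon OHT in shNT became 2, 3 and 2 without shNT replicates 1, 2 and 3. FBXW7, the ligase that recognises phosphorylated MYC, rose by 0.85 (SE 0.10, adjusted p = 8.15e-08) under the shCDK12 label without OHT and by 0.83 (SE 0.15, adjusted p = 0.00122) with it. FBXO32, another ligase subunit, fell by 2.43 (SE 0.12, adjusted p = 5.46e-15) from shNT to shCDK12 and by 1.11 (SE 0.15, adjusted p = 0.000207) upon OHT in shNT, and rose by 1.21 (SE 0.11, adjusted p = 1.03e-07) upon OHT in shCDK12. STUB1, a ligase that acts with chaperones, rose by 1.73 (SE 0.31, adjusted p = 0.00198) upon OHT in shNT. These are changes in RNA, and the amount of MYC protein was not measured.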

How the data were processed

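The authors deposited 1 table of raw counts per gene, listed by Entrez identifier, for 12 EU-seq libraries (stranded total RNA kit, human with mouse RNA). Per the labels, the submitters' processing notes name STAR 2.7.5c, featureCounts 1.4.5-p1 and hg19; strand use in counting is not given in the sources used here. Symbols matched 23284 of 23434 rows through human RefSeq, and 150 rows kept their identifier. No scaling to the mouse RNA was made, so changes are relative to the other genes.

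Counts were tested with edgeR 4.0.16 in R 4.3.3 (TMM, quasi-likelihood, Benjamini-Hochberg over all genes tested, adjusted p under 0.05), for genes with a mean normalized count above 32. Each pairwise comparison used its 6 libraries, and the interaction of shRNA label and OHT all 12. CPM used TMM factors over 12 libraries, a prior count of 1 on the log2 scale, and exon lengths of GENCODE canonical transcripts for values per kb. Intervals are 95%. Alternatives were DESeq2 1.42.0, upper-quartile and RLE scaling, a filter at 10 or none, a replicate block, all 12 libraries in one fit, thinning to 1251695 counts (1 draw), a loess trend on gene length removed (span 0.3), each library left out, and, added after seeing the data, both of the shallowest libraries left out. Scripts were tested on simulated data.

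The members, lists and tests were chosen with earlier results of these data known. Named genes are all members, MYCN, MYCL, MLXIPL, CDK12, ESR1, the 5 genes most like MYC and the 1 most like each other member, and up to 4 genes per list and comparison with the smallest adjusted p. Some genes that this rule names are not reported here.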

Additional observations from a re-analysis of the deposited data

Results flagged for a closer look

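For 6 of the 10 members the interaction term of edgeR's quasi-likelihood test over all 12 libraries showed unequal responses to OHT under the shRNA labels. The difference, as the log2 response in the libraries labelled shCDK12 minus that in shNT, was 0.96 for MYC (adjusted p = 7.93e-06), -0.75 for MAX (adjusted p = 0.000392), -1.04 for MXI1 (adjusted p = 0.000995), 2.53 for MXD4 (adjusted p = 4.58e-07), 0.80 for MLX (adjusted p = 0.00107) and -1.60 for MLXIP (adjusted p = 1.43e-05). With 45.2% of all genes past the same threshold, these values are not particular to the network. They hold for the labels as deposited, which the level of CDK12 goes against in the libraries labelled shCDK12.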

How the results depend on the processing

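Of 50 results (10 members in 5 fits) 23 held their call and sign wherever they could be tested. Some alternative removed the call of 14, gave 5 a call they had not had, and turned the sign of 8, of which 0 were called. Thinning to equal depth lowered the genes called from 1782 to 847 upon OHT in shNT, from 6128 to 1041 upon OHT in shCDK12, from 7265 to 2966 and from 5298 to 1848 between the shRNA labels without and with OHT, and from 5289 to 1786 in the interaction, with fewer genes tested, and the members called upon OHT from 4 to 0 in shNT and from 7 to 2 in shCDK12. Calls lost at that depth included MAX in the interaction (-0.63, adjusted p = 0.0892) and MLX (-0.66, adjusted p = 0.0606) and MLXIP (-0.32, adjusted p = 0.419) between the labels with OHT. Upon OHT in shNT 3256 genes passed with all 12 libraries in one fit (cause not tested), and 1026 genes and 0 members without the 2 shallowest libraries.

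With each library left out, the genes called ranged from 670 to 2523 upon OHT in shNT (members 0 to 4; 751, 670, 818 and 1101 genes without shNT replicates 1, 2 and 3 and shNT_OHT replicate 3) and from 3520 to 6238 between the labels with OHT (3527 and 3520 without shCDK12_OHT replicates 1 and 2). Signs changed, without a call, upon OHT in shNT for MYC (-0.17 to 0.035), MLX (-0.11 to 0.058), MXD1 (-0.055 to 0.24) and MNT (-0.16 to 0.44), upon OHT in shCDK12 for MGA (-0.067 to 0.027), between the labels with OHT for MYC (-0.043 to 0.16) and MAX (-0.014 to 0.15), and in the interaction for MNT (-0.30 to 0.31). Without the shallow libraries MYC was 0.024 and MLX 0.027 upon OHT in shNT and MYC -0.043 between the labels with OHT. MGA was 0.023 upon OHT in shCDK12 when thinned, and MAX -0.16 between the labels with OHT when the length trend was removed; the cause was not tested.

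The mean log2 ratio of MYC to MNT alone was 5.07, 4.86, 3.56 and 4.31 in shNT, shNT_OHT, shCDK12 and shCDK12_OHT, and to the 4 MXD genes alone 3.85, 3.56, 1.66 and 2.703, by construction. The share of higher genes among calls went, with the length trend removed, from 52.2% to 63.3% upon OHT in shNT, from 52.4% to 42.0% between the labels with OHT and from 56.6% to 46.2% in the interaction, and to 64.9%, 39.0% and 43.6% at equal depth. Upper-quartile scaling moved the last share to 47.2% and the median of all genes in the interaction from 0.10 to -0.02. Upon OHT in shNT it was 62.4% without the shallow libraries, and upon OHT in shCDK12 it went from 56.2% to 43.2% at equal depth. The r of deviations from the group means was over 0.1 in 2 of 18 same-numbered and 0 of 36 other pairs of libraries from different groups. Both of these pairs joined shNT_OHT and shCDK12, at 0.27 for replicate 1 and 0.30 for replicate 2. The main fits used no pairing. With the replicate block 1734, 6236, 7437, 4846 and 5385 genes were called, and MNT between the labels with OHT became a call (0.59, adjusted p = 0.0193); no other member's call changed.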
